A study of Mus musculus with 8 samples.

Results

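Interferon response genes are genes whose transcription is switched on by interferons, the signalling proteins that cells release on sensing viral or other foreign nucleic acid. A list of 37 such mouse genes was described here in liver and colon, among 45777 genes of 1 expression table. They were taken by symbol through the NCBI gene number of each row, and 37 of 37 were found. The list holds the ISG15 modifier and its protease, the IFIT, OAS and Mx antiviral families, cytoplasmic nucleic acid sensors, transcription factors of the pathway, interferon-induced GTPases, the immunoproteasome and peptide transporter, and other induced proteins.

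The study asked how extracellular vesicles (EVs, membrane particles shed by cells) from bovine colostrum act in a mouse model of non-alcoholic steatohepatitis (NASH), a fatty liver disease with inflammation. The groups were a control group, a NASH group, a NASH group given EVs at a low dose and one given EVs at a high dose. That the EV groups had NASH was read from the series' design text. Each group gave 1 liver and 1 colon library of total RNA, 8 libraries in all. Strain, age, sex, diet, dose amounts, length of treatment and any pooling of animals are not stated in the labels or design text used here. With 1 library per group no difference below has a replicate check, no test could be made, and each comparison describes a pair of libraries and not their groups.

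The tissue labels were matched by marker genes. Summed over 8 hepatocyte markers, FPKM (fragments per kilobase of transcript, scaled to the mapped fragments of the library) ran from 24326 to 39467 in the liver libraries and from 22.4 to 33.5 in the colon libraries. Summed over 10 markers of colon epithelium, it ran from 6223 to 7601 in colon and from 75.2 to 532 in liver. Nearly all of that liver sum was Krt8, at 70.2 FPKM in control and 527 in NASH. The sequencing depth behind the FPKM values is unknown. The number of genes at 1 FPKM or more was 10469 to 12420 per liver library and 13863 to 14480 per colon library.

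As background, type I and type III interferons bind receptors that activate the kinases JAK1 and TYK2, and the transcription factors STAT2 and IRF9 then act as parts of the complex ISGF3. ISGF3 binds the interferon-stimulated response element (ISRE), a repeat of GAAA blocks, in the promoters of many of these genes. Interferon gamma, the type II interferon, acts through the gamma-activated site (GAS), and through IRF1, which binds ISRE-like sequence. In liver, hepatocytes and resident macrophages (Kupffer cells) both respond to interferons.

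The letters of both elements can be read in the promoters of several of the 37 genes, and 8 stretches are printed to show where they lie. Each runs 5′ to 3′ on the gene's strand in the RefSeq promoter table of GRCm38.p6 and ends at the base before the start site. Capitals mark the ISRE core in the first 7 stretches, overlapping matches being merged. The core was taken as 2 GAAA blocks with any 2 bases between them, or 2 TTTC blocks so spaced where it lies on the other strand. In the last one, Irf1, they mark the GAS core TTCNNNGAA.
Ifit1, chr19:34640769-34640888, plus strand: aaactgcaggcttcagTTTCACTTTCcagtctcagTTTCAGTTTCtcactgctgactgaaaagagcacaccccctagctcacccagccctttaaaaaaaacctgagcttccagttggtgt
Rsad2, chr12:26456453-26456582, minus strand: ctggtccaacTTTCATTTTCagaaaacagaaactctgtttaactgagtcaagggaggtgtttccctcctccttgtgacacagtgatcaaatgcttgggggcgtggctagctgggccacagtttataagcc
Isg15, chr4:156200819-156200918, minus strand: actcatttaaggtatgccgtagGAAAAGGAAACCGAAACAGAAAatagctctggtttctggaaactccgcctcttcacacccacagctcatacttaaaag
Oas1a, chr5:120907526-120907585, minus strand: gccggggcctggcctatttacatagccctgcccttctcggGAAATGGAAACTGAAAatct
Oas1g, chr5:120887614-120887673, minus strand: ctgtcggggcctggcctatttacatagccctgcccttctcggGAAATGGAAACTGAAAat
Gbp2, chr3:142620583-142620662, plus strand: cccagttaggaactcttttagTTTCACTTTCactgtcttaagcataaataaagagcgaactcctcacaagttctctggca
Igtp, chr11:58199476-58199555, plus strand: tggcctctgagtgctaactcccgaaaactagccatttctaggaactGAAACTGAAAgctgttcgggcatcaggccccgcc
Irf1, chr11:53769904-53770013, plus strand: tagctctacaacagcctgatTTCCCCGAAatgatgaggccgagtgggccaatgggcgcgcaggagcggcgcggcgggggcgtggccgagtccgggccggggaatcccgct
The Oas1a and Oas1g stretches carry the same capitals, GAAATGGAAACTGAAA, next to their start sites. Of the Oas1a stretch, 19 bases lie inside the outermost bounds of the annotated gene, and the start site used for Ifit3, which is not printed, also lies inside that gene's bounds. In Isg15 there were 3 overlapping matches in 1 run, and in Ifit1 there were 2 separate matches on the reverse strand.

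Both motifs were searched on both strands in the 250 bases before each start site. The ISRE core was found in 978 of 32851 promoters (2.98%) and the GAS core in 2306 (7.02%), or, counted by gene, in 3.46% and 8.13% of 27025 genes. Of the 37 genes, 30 were matched to the promoter table; Usp18, Oas2, Mx1, Mx2, Dhx58, Zbp1 and Ifi27 were not. The ISRE core was present in 14 of the 30 (46.7%), namely Isg15, Ifit1, Ifit3, Oas1a, Oas1g, Oas3, Rsad2, Bst2, Stat2, Irgm1, Igtp, Gbp2, Gbp3 and Gbp7. The GAS core was present in 7 (23.3%), namely Irf1, Ifit2, Oas1a, Bst2, Psmb8, Igtp and Gbp7. Oas1a, Bst2, Igtp and Gbp7 held both. The genes were listed for their response to interferon, so an excess of these letters describes the list. A match is a run of letters and not a bound site, and no match says only that the letters are not in this window.

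**Figure D1:**
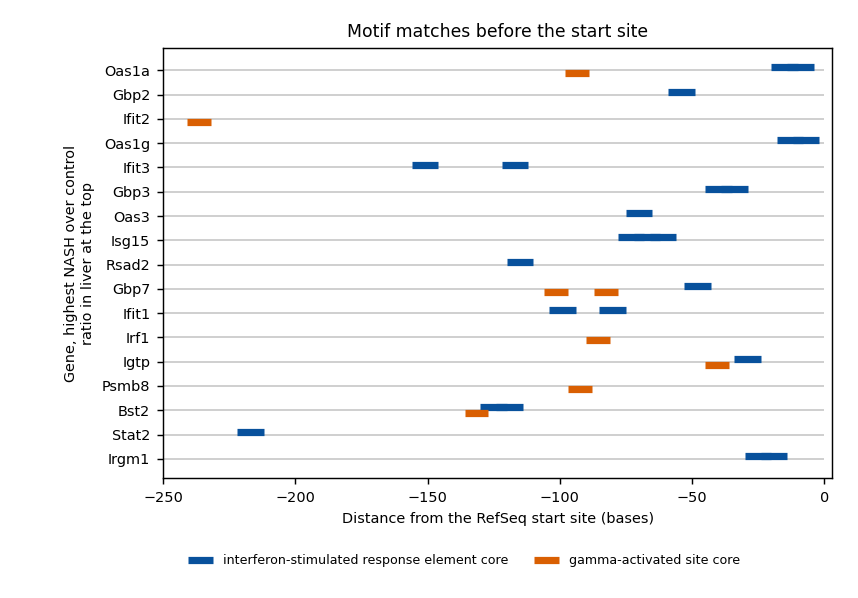
Position of each motif match in the promoters of the interferon response genes that hold one. The horizontal axis is the distance in bases from the start site, each row is a gene, and the marks show the ISRE core and the GAS core. The ISRE core was found in 14 genes and the GAS core in 7.

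Several of the genes lie side by side in the mouse genome (GRCm38.p6). Ifit1, Ifit2 and Ifit3 span 99.5 kb of chromosome 19, from 34550550 to 34650009. Oas1a, Oas1g, Oas2 and Oas3 span 177 kb of chromosome 5, from 120730333 to 120907544, and Oasl1 and Oasl2 lie within 41.0 kb on the same chromosome. Gbp2, Gbp3 and Gbp7 span 108 kb of chromosome 3, and Psmb8, Psmb9 and Tap1 lie within 19.4 kb of chromosome 17. The annotated starts of Psmb9 and Tap1 are 226 bases apart and the genes run away from each other. Oas1a and Oas1g are close copies, and a table of this kind may split or share their reads, so their separate values are uncertain.

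Ratios are given as the difference of log2(FPKM + 1) between 2 libraries, less that of the median gene of the comparison. A gene was kept in a tissue if it reached 1 FPKM in at least 1 of the 4 libraries, and called apart at 2-fold or more on that scale. The median gene was 0.55 higher in NASH than in control liver on the log2 scale, so levels as deposited and ratios relative to it can differ in sign. In liver all 37 genes were kept, 7 of which were below 1 FPKM in the control library, and in colon 33 were kept.

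The NASH liver library held more RNA of most interferon response genes than the control liver library. The genes that stood highest encode the ISG15 system, the OAS synthetases, IFIT proteins, guanylate-binding proteins, the sensor Zbp1 and the transcription factor Irf7. At 2-fold or more, 13 of 37 were higher and 0 were lower, where 7.21% of the 12866 genes kept were higher and 7.66% lower. Of these 13, Ifit2, Oas1g, Oas2, Oas3 and Oasl2 were below 1 FPKM in control and were kept only through the other libraries. The median ratio of the 37 was 0.67, with a range from -0.79 for Ifi27 to 1.89 for Oas1a, and 33 stood above the median gene. At 1.5-fold, 19 were higher and 1, Ifi27, was lower, against 15.6% and 15.8% of genes. Among the 3823 genes whose mean level fell in the middle range of the 37, 8.4% were 2-fold higher and 5.34% lower. As deposited, with no median gene removed, 26 of 37 were 2-fold higher against 20.5% of genes, and 3.23% were lower. In bulk tissue such a difference can come from more cells of a type or more RNA per cell, and these cannot be told apart.

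Isg15 encodes the ubiquitin-like modifier that is attached to proteins after interferon, and Usp18 encodes the protease that removes it and damps the type I receptor. Usp18 was at 4.37 FPKM in control liver, 28.0 in NASH, 26.5 with low-dose EVs and 36.4 with high-dose EVs. Isg15 was at 2.75 in control, 10.3 in NASH, 7.74 with the low dose and 11.6 with the high dose. Control was the lowest library for both genes and the high-dose library the highest. Relative to the median gene, NASH exceeded control by 1.88 for Usp18 and by 1.04 for Isg15 on the log2 scale.

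IFIT proteins bind viral RNA and block its translation. Ifit1 stood at 1.96 FPKM in control liver, 5.90 in NASH, 6.98 in the low-dose library and 11.3 in the high-dose library. Ifit2 stood at 0.841, 6.94, 7.97 and 10.3 in the same order, and Ifit3 at 3.71, 16.7, 16.6 and 28.3. All 3 were lowest in control and highest in the high-dose library. NASH over control was 1.56 for Ifit2, 1.36 for Ifit3 and 0.67 for Ifit1, the last short of 2-fold relative to the median gene.

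OAS enzymes sense double-stranded RNA and make the oligoadenylates that activate the nuclease RNase L; Oasl1 and Oasl2 are related proteins. Of these 6 genes 5 were 2-fold higher in the NASH liver than in control, against 7.21% of all genes. Oas1g, Oas2, Oas3 and Oasl2 were below 1 FPKM in control, so they were kept only through the other libraries. Oas1a was at 1.59, 13.1, 12.7 and 14.3 FPKM in control, NASH, low-dose and high-dose liver, and Oas1g at 0.669, 5.93, 5.28 and 5.89. For both genes the NASH and EV libraries lay close together and far above control. Oas2 was at 0.581, 4.05, 3.003 and 2.49 FPKM, and Oas3 at 0.247, 2.81, 2.06 and 2.22. For both, NASH was the highest library, unlike most of the 37. Oasl2 was at 0.640, 4.77, 4.72 and 4.84, a ratio of 1.26 for NASH over control. Oasl1 was at 2.97, 7.19, 7.17 and 8.38, a ratio of 0.49.

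None of 5 further antiviral effectors passed 2-fold relative to the median gene. Rsad2, which encodes viperin, an enzyme that makes a chain-terminating nucleotide, was at 2.09, 7.50, 7.94 and 10.3 FPKM in the 4 livers, with 0.91 for NASH over control. Its neighbour Cmpk2, a mitochondrial nucleotide kinase, was at 1.56, 4.28, 3.77 and 5.10. Both were lowest in control and highest with the high dose. Mx1, a dynamin-like GTPase that traps viral nucleocapsids, was at 0.459, 2.47, 2.60 and 3.02, with a ratio of 0.70. Bst2, or tetherin, which holds budding virus at the cell surface, was the most abundant of the 37 in the liver NASH library, at 166 FPKM against 91.1 in control, and its ratio was 0.30. Mx2 was at 1.72 and 2.49 FPKM, a ratio of -0.20.

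Among sensors, Zbp1, which binds Z-form nucleic acid and can start necroptosis, was at 2.30 FPKM in control, 13.5 in NASH, 11.4 with the low dose and 12.5 with the high dose. Its ratio of 1.58 for NASH over control stood apart from the 3 RIG-I-like receptor genes. Ifih1, Ddx58 (RIG-I) and Dhx58 had ratios between 0.52 and 0.54, with levels of 5.52 and 12.8 FPKM in control and NASH for Ifih1, 4.41 and 10.4 for Ddx58, and 2.56 and 6.59 for Dhx58. Those 3 lay close together in this comparison and short of 2-fold.

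Of the transcription factors only Irf7, the factor that drives interferon-alpha genes, passed 2-fold. It was at 7.31 FPKM in control liver, 30.4 in NASH, 27.4 with the low dose and 26.4 with the high dose, a ratio of 1.36 for NASH over control. Irf1 was at 9.73, 21.2, 18.9 and 18.2, a ratio of 0.49. Stat2 and Irf9, which encode parts of ISGF3, had ratios of 0.21 and 0.02. Stat2 was at 5.44, 9.94, 6.72 and 6.63 FPKM, so that its EV libraries lay nearer to control than to NASH.

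Guanylate-binding proteins and immunity-related GTPases act on membranes around intracellular pathogens. Gbp2 was at 1.92 FPKM in control liver, 12.8 in NASH, 10.6 with the low dose and 12.2 with the high dose, and Gbp3 at 1.35, 7.65, 7.78 and 9.67. Their ratios for NASH over control were 1.69 and 1.33, while Gbp7 had 0.70. The immunity-related GTPases Igtp, Irgm1 and Ifi47 had ratios of 0.33, -0.13 and -0.13, and their control levels of 14.9, 18.3 and 14.7 FPKM were the highest of the 6 GTPase genes. The immunoproteasome subunits Psmb8 and Psmb9 had ratios of 0.31 and 0.10, and the peptide transporter Tap1 had 0.56.

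The remaining 4 genes differed among themselves. Ifi44 was at 0.726, 3.79, 4.52 and 5.89 FPKM in control, NASH, low-dose and high-dose liver, and Xaf1, a gene that favours cell death, at 1.45, 5.21, 6.35 and 6.67. Both were lowest in control and highest with the high dose, with ratios of 0.92 and 0.79 for NASH over control. Ifi35 had a ratio of 0.21. Ifi27, whose protein lies in mitochondria, was at 86.5 FPKM in control liver, 73.0 in NASH, 87.5 with the low dose and 123 with the high dose. It was the 1 gene of the 37 that was lower in NASH than in control as deposited.

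**Figure D2:**
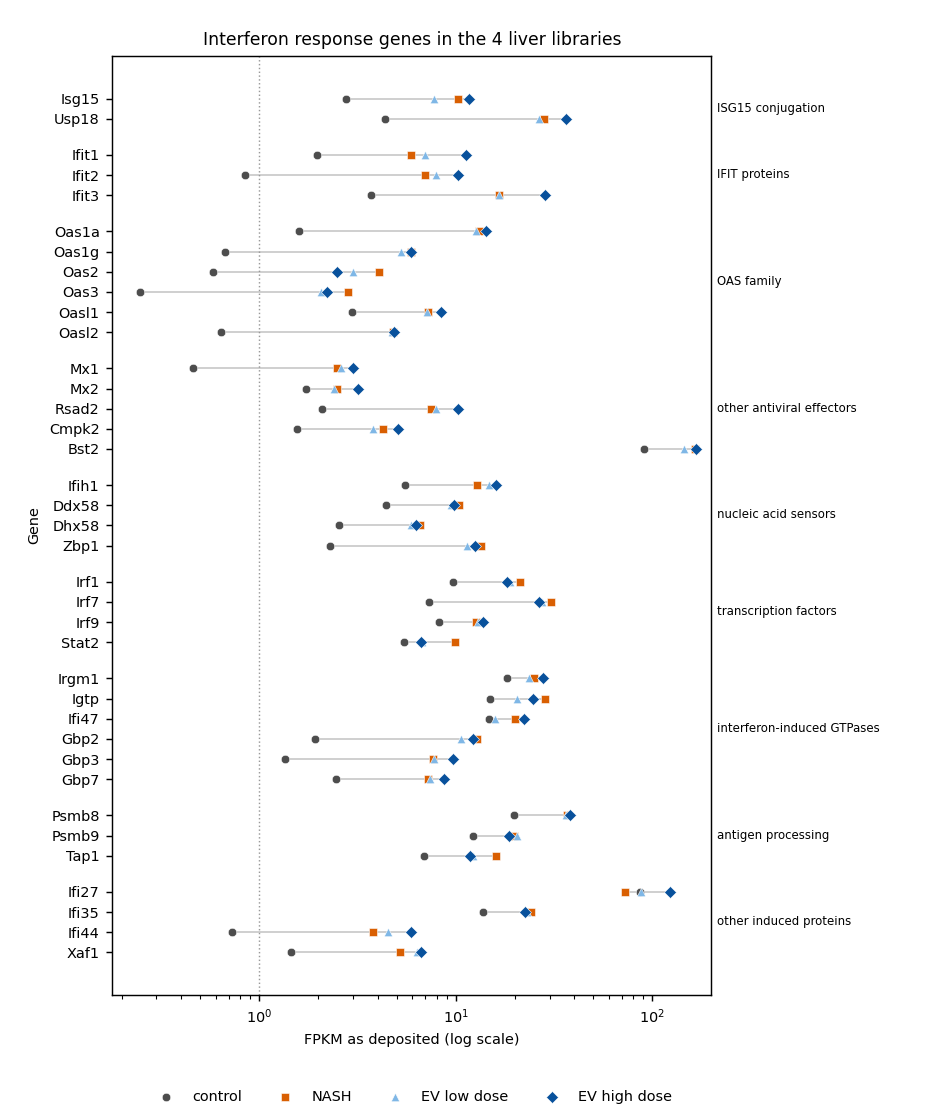
FPKM of each of the 37 interferon response genes in the 4 liver libraries, on a log axis, grouped by role, with 1 point per library. Control is the lowest point as deposited in 36 of 37 genes, the exception being Ifi27, as it is for 73.5% of all genes kept.

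Markers of macrophages stood with the interferon response genes in these livers. The summed FPKM of 10 macrophage markers was 187 in control, 1051 in NASH, 1008 with the low dose and 1069 with the high dose. In NASH over control 10 of 10 were 2-fold higher (median 1.86), where 7.21% of all genes kept were higher and 7.66% lower. None of the 10 was at 0 in a liver library. Of 8 neutrophil markers 3 of the 4 kept were 2-fold higher, against the same 7.21%, and 5 were at 0 in control. The sum was 4.35 in control, 66.3 in NASH, 18.2 with the low dose and 19.0 with the high dose. Most of it in NASH was S100a8 and S100a9, at 26.7 and 33.2 FPKM. Camp was above 0 only in the NASH liver, at 3.29 FPKM, and Ly6g, Mpo, Elane and Cxcr2 stayed below 1 FPKM in each liver. The 11 T and NK cell markers summed to 2.60 in control and between 5.77 and 8.14 in the other livers. In NASH over control 0 of the 2 kept passed 2-fold, against 7.21% of genes higher and 7.66% lower. The 6 markers of plasmacytoid dendritic cells, which secrete type I interferon, summed to 1.79 in control, 5.36 in NASH, 3.65 with the low dose and 5.502 with the high dose. Of these 6 genes 1 was kept, Tcf4, with a ratio of 0.22 for NASH over control. Tcf4 made up most of the sum in each liver, at 1.59 FPKM in control and 3.41 in NASH. Klk1, also among the 6, was at 1119 FPKM in control colon, so the list is not specific to these cells. The summed hepatocyte markers were 39467 in control and 24326 in NASH, with 5 of 8 2-fold lower, against 7.66% of all genes. The part of these cell types in the ratios of the interferon response genes was not tested.

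Members that hold the ISRE core in the promoter window were split from those without it. In NASH over control liver, 7 of 14 with the core were 2-fold higher (median 0.97), as were 3 of 16 without it (median 0.51) and 3 of the 7 with no matched promoter (median 0.70), against 7.21% of all genes. The ranges of the groups overlapped: Irgm1 with the core was at -0.13, and Ifit2 without it at 1.56. Of the 7 higher with the core, Oas1g and Oas3 were below 1 FPKM in control, and Oas1a and Oas1g may share reads. In low-dose EVs over NASH the medians were 0.02 with the core, 0.13 without it and 0.06 with no matched promoter. In high-dose EVs over NASH they were 0.26, 0.22 and 0.34. The differences between the groups were not tested.

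The low-dose liver library lay close to the NASH liver library for these genes, as it did for nearly all genes kept. Against NASH, 0 of 37 genes were 2-fold higher and 0 lower, against 0.443% and 0.225% of genes, and 0 passed 1.5-fold in either direction, against 2.29% higher and 1.62% lower. Their median ratio was 0.08, from -0.36 for Stat2 to 0.40 for Ifi27, and 23 stood above the median gene. As deposited the median was -0.06, so the sign rests on the scaling.

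In the high-dose liver library most interferon response genes stood somewhat above NASH relative to the median gene, led by Ifit1, Ifi27 and Ifit3. No gene reached 2-fold in either direction, against 0.816% of genes higher and 0.373% lower. At 1.5-fold, Ifit1, Ifi27, Ifit3, Ifi44 and Ifit2 were higher, 5 of 37 against 4% of genes, and 0 were lower, against 4.07%. Their ratios were 0.96, 0.88, 0.87, 0.66 and 0.64. The median over the 37 was 0.25, and 30 stood above the median gene, against 50% of all genes. As deposited the median was 0.12, with 23 of 37 above 0 against 33.4% of genes, and with every library set to an equal total it was 0.01, with 20 of 37 above 0 against 22.5%. The size of this difference thus depends on how the libraries were scaled.

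By role, the 3 IFIT genes had a median of 0.87 in the high-dose liver over NASH, the 5 further antiviral effectors 0.34, Isg15 and Usp18 0.30 and 0.50, and the 6 GTPases 0.28. The 4 remaining induced proteins had a median of 0.55. The 6 OAS genes were at 0.14, the 4 sensors at 0.06 and the 3 antigen processing genes at 0.04, close to the 4 transcription factors at -0.07. Irf7, Irf1 and Stat2 were at -0.06, -0.08 and -0.38, and Irf9 was at 0.25. Oas2 at -0.40 was the lowest of the 37 and Tap1 was at -0.27. The macrophage markers had a median of 0.07 in the same comparison, the hepatocyte markers 0.46, the endothelial markers 0.13 and the 4 neutrophil markers kept -1.48. Of those 4, 3 were 2-fold lower, against 0.373% of genes, and the part of these cell types was not tested.

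**Figure D3:**
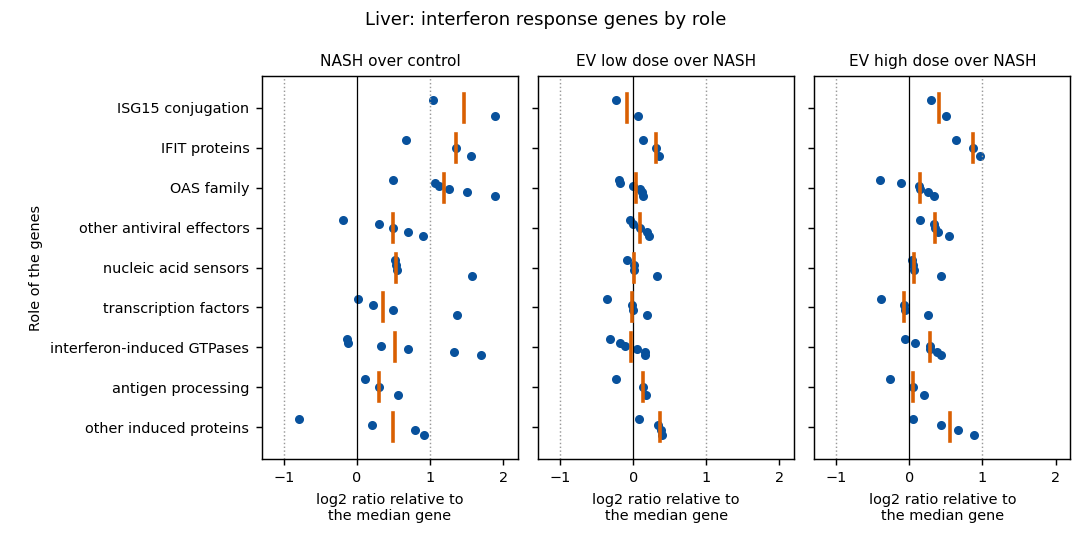
Log2 ratio relative to the median gene for each interferon response gene by role in liver, for NASH over control, low-dose EVs over NASH and high-dose EVs over NASH, with 1 point per gene. NASH over control reaches 1.89, whereas both EV ratios stay between -0.40 and 0.96, with Ifit1 on top in the high-dose library.

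High-dose over low-dose EVs in liver gave a median of 0.16, with 30 of 37 genes above the median gene and 0 past 2-fold (0.303% of genes higher, 0.163% lower). Ifit3 at 0.73 and Ifit1 at 0.62 were 1.5-fold higher, 2 of 37 against 1.06% of genes, and 0 were 1.5-fold lower, against 1%. Over the 4 liver libraries, the high-dose one was the highest for 28 of 37 genes relative to the median gene, as it was for 21.9% of all genes kept. Control was the lowest for 32, against 38.7%. As deposited, the high-dose library was the highest for 23 of 37 (20.8% of genes), NASH for 13 (57.2% of genes) and the low-dose library for 1, Psmb9 (9.33% of genes). Against control, which these comparisons share with NASH over control, the low-dose liver had 14 of 37 genes 2-fold higher (6.5% of genes) and the high-dose liver 17 (6.28%), with 0 lower in each (5.69% and 5.14%).

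The interferons themselves were near or at 0. None of 21 ligand genes reached 1 FPKM in any library, 17 were listed at 0 in all 8, and the highest value was 0.197 FPKM, for Ifnk in the high-dose liver. Ifnb1 was at 0.0794 FPKM in NASH liver and listed at 0 elsewhere. Ifng was at 0.0287 and 0.0610 in the low-dose and high-dose livers and at 0.0390 in the low-dose colon. With the depth unknown, a value of 0 does not show that a ligand was absent.

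Receptor genes split in the NASH liver. Il10rb, the shared chain of the interferon-lambda receptor, was 1.38 above control, and the interferon-gamma receptor chains Ifngr2 and Ifngr1 were 1.16 and 1.11 above it. The type I receptor chains did not stand with them, with Ifnar1 at 0.24 and Ifnar2 at -0.81. Ifnlr1, the other chain of the interferon-lambda receptor, was not kept in liver, at 0 FPKM in control and 0.194 in NASH. The receptor kinase genes Jak2 and Jak1 were at 0.56 and 0.54, short of 2-fold. Among 12 upstream sensors and adaptors kept, 4 were 2-fold higher, against 7.21% of all genes, led by Irf8, a factor of myeloid and dendritic cells, at 1.65 and the endosomal RNA receptors Tlr8 and Tlr7 at 1.60 and 1.39. Of 8 feedback inhibitors 1 was higher, the phosphatase gene Ptpn6, at 1.07, a share not far from that of all genes.

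Further interferon-induced genes outside the 37 were read in the same way. In NASH over control liver, where 7.21% of all genes kept were 2-fold higher, 9 of the 31 kept were higher and 0 lower, led by Lgals3bp at 1.496, Ifi204 at 1.46 and Slfn5 at 1.40. Of 12 further GTPases 3 were higher, Gbp11 at 1.40, Gbp9 at 1.09 and Tgtp1 at 1.009, while Iigp1 was at -0.65. Of 14 genes of MHC class I presentation 1 was higher, H2-D1 at 1.11, a share near that of all genes, and of 3 chemokines 1 was, Cxcl10, at 1.72. In high-dose EVs over NASH, 1 gene of these lists passed 2-fold: Gbp11, at 2.95 FPKM in control liver, 14.3 in NASH, 18.7 with the low dose and 32.2 with the high dose, a ratio of 1.25. Iigp1 was at 0.76, and Trex1, a nuclease that clears cytoplasmic DNA, was at -0.83.

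In colon the interferon response genes differed little between libraries. Oas2, Oas3, Mx2 and Ifi44 stayed below 1 FPKM in all 4 colon libraries and were not kept. Of the other 33, 0 were 2-fold higher and 0 lower in NASH over control, against 2.12% and 2.26% of the 15245 genes kept, and the median was 0.15. At 1.5-fold Ifit1 and Oasl2 were higher, 2 of 33 against 7.1% of genes, and Mx1 was lower, 1 of 33 against 6.45%. These shares are near or below those of all genes. Of the same 33 genes, 11 were 2-fold higher in liver in the matching comparison; the difference between tissues was not tested.

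Mx1 was at 3.85 FPKM in control colon, 1.75 in NASH, 1.78 with the low dose and 2.05 with the high dose, a ratio of -0.88 for NASH over control. Its control library was the highest, while in liver control was the lowest. Ifit1 was at 2.19, 4.58, 2.32 and 2.81 FPKM, highest in NASH colon, with 0.74 for NASH over control and -0.69 for the low dose over NASH. Oasl2 was at 2.26, 4.57, 3.66 and 3.79, a ratio of 0.71 for NASH over control. Isg15 was at 2.67, 2.07, 1.41 and 1.82, and Usp18 at 2.02, 1.69, 1.96 and 1.91, with control highest for both. Rsad2 was at 1.99, 1.22, 1.15 and 1.496, again with control highest. All these levels are low, where a pseudocount of 1 FPKM narrows ratios most.

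Among EV comparisons in colon, 0 of 33 genes passed 2-fold in low dose over NASH (1.06% of genes higher, 1.61% lower), in high dose over NASH (1.08% and 1.48%) or in high over low dose (0.728% and 0.794%). Their medians were 0.10, 0.05 and -0.05. Against control, 0 of 33 passed 2-fold with the low dose (1.15% higher, 1.73% lower) or the high dose (1.12% and 1.59%). Oas1a was at 29.4, 21.3, 34.2 and 26.9 FPKM in control, NASH, low-dose and high-dose colon and Oas1g at 13.6, 11.7, 16.4 and 15.7. Both were highest with the low dose and lowest in NASH, and Oas1a passed 1.5-fold in low dose over NASH at 0.72, 1 of 33 against 5.64% of genes, as Ifit1 did on the lower side, against 6.7%. In high dose over NASH 0 of 33 passed 1.5-fold, against 2.49% higher and 3.99% lower. Ifit3 was highest with the high dose, at 5.15 FPKM against 2.46 in control, 3.96 in NASH and 2.72 with the low dose. In high over low dose Ifit3 was 1.5-fold higher at 0.65 and Ifi47 1.5-fold lower at -0.63, each 1 of 33, against 2.91% and 3.38% of genes. The low-dose colon was the highest library for 20 of 33 genes relative to the median gene, against 28.1% of genes, and as deposited for 13, against 22.6%. In that library the 10 macrophage markers summed to 246 FPKM, against 166 to 197 in the other colons, and the 6 B and plasma cell markers to 441, against 183 to 333, and their part was not tested.

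**Figure D4:**
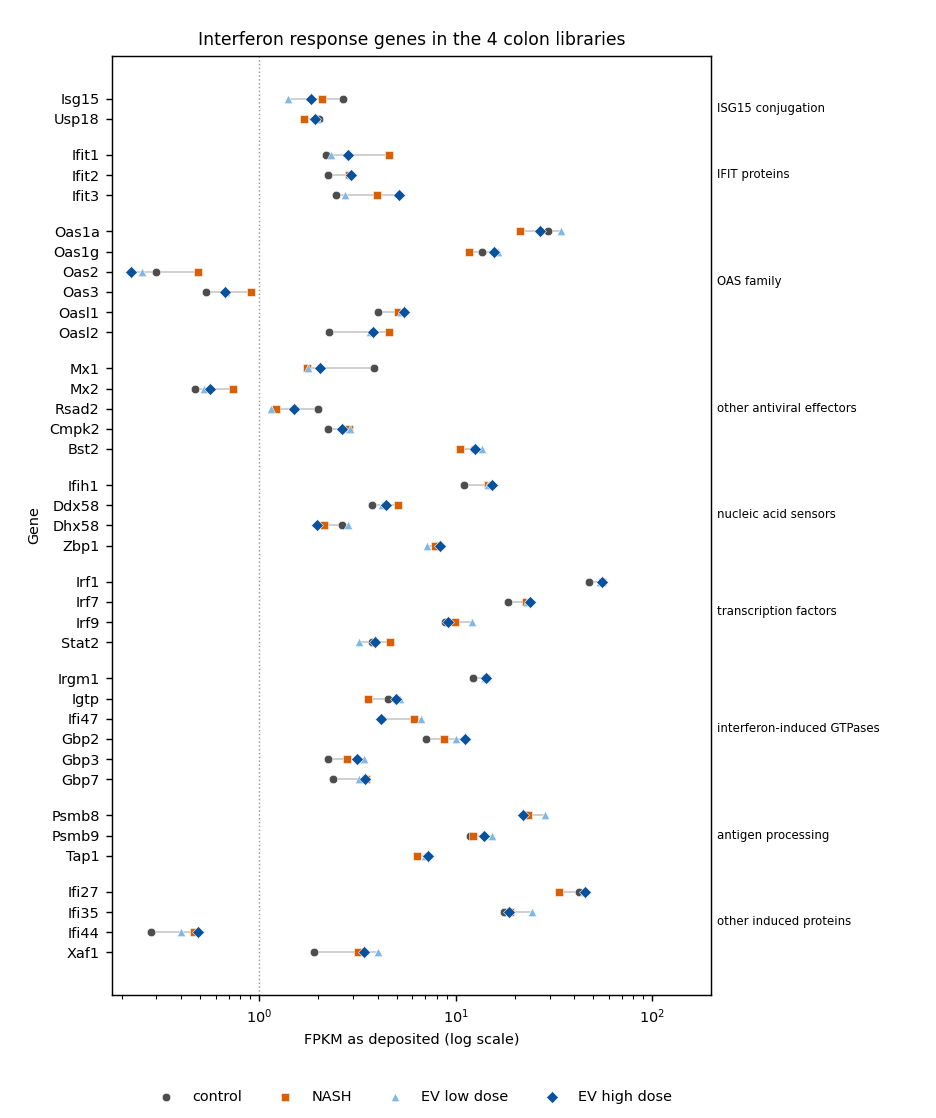
FPKM of the interferon response genes in the 4 colon libraries, on a log axis, grouped by role, with 1 point per library. Points of a gene lie close together for most genes, and Mx1 is set apart by its control library at 3.85 FPKM.

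The control libraries of both tissues showed where these genes stand without NASH. Summed over the 37 genes, FPKM was 358 in control liver and 323 in control colon. Bst2 led in liver at 91.1 FPKM against 12.4 in colon, followed by Ifi27 at 86.5 against 42.4. Irf1 led in colon at 47.9 against 9.73 in liver. Oas1a was at 29.4 in colon and 1.59 in liver, and Oas1g at 13.6 and 0.669, so that the NASH liver, at 13.1 and 5.93 FPKM, still lay below control colon for both. Igtp was at 14.9 in liver and 4.54 in colon, and Ifi47 at 14.7 and 4.18.

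Relative to the median gene, 12 of 37 were 2-fold higher in control liver than in control colon and 3 lower (Oas1a, Oas1g and Irf1), against 15.8% and 15.9% of the 16284 genes kept. Their median was 0.75. As deposited, 4 were higher and 7 lower, against 8.33% and 41.8% of genes, and the median was -0.09. The median gene lay 0.84 lower in liver on the log2 scale as deposited, so a difference between tissues for the list as a whole depends on the scaling. Oas1a, Oas1g and Irf1 were below colon, and Bst2, Igtp and Ifi47 above it, on both scales.

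**Figure D5:**
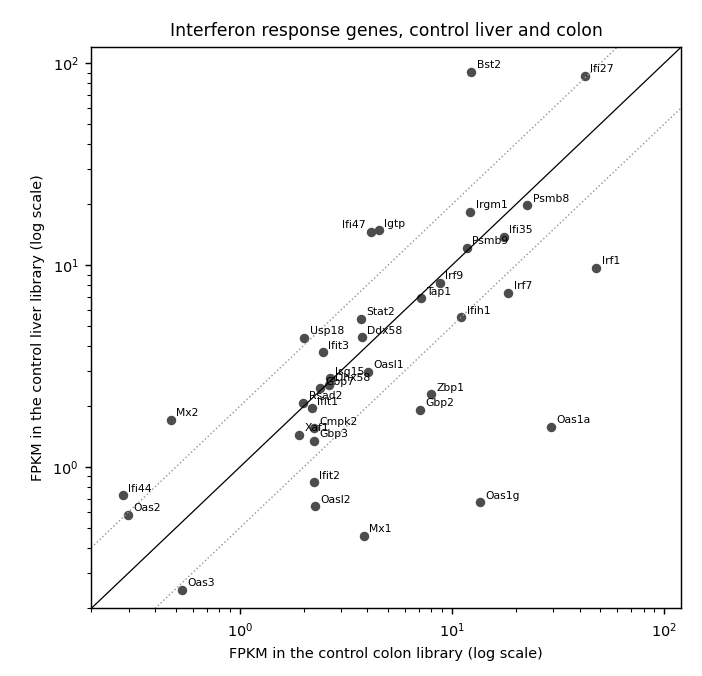
FPKM of the 37 interferon response genes in control colon (horizontal) and control liver (vertical), both on log axes, with 1 point per gene a solid line of equal level and dotted lines at 2-fold. Oas1a, Oas1g, Irf1 and Mx1 lie well to the colon side and Bst2, Igtp, Ifi47 and Mx2 to the liver side. Further genes lie past the 2-fold lines, among them Zbp1, Irf7, Gbp2, Oasl2 and Ifit2 on the colon side and Ifi27 and Usp18 on the liver side.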

How the data were processed

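The values were FPKM as deposited by the authors, in 1 table with 1 column for each of 8 libraries. Per the labels' protocols, TRIzol and RNeasy Plus were used for extraction and a TruSeq Stranded Total RNA Gold kit for the libraries. Trimmomatic 0.38, HISAT2, StringTie and the build mm10 appear in the submitters' processing notes; their roles and other versions are not stated there. Whether counting used strand is not stated, so reads of overlapping antisense genes cannot be told apart. Of 45777 NCBI gene numbers, 45679 were matched to symbols (GRCm38.p6) and 98 were not.

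Log2(FPKM + 1) was computed from the deposited FPKM, and the pseudocount understates ratios of low genes. Of the genes, 12866 in liver and 15245 in colon reached 1 FPKM in 1 library of the tissue or more (16284 for liver against colon). The 13 comparisons have 1 library per group, so there is no test, error or probability.

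The 37 genes and all lists were chosen with earlier results of these data known. Named outside them were the ligands and receptors and up to 3 genes with the largest ratios in each of 9 pathway lists.

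Alternatives were pseudocounts of 0.1 and 5 FPKM, no filter and a filter of 5 FPKM, values as deposited, median-of-ratios, the same sum, the median protein-coding gene and the mean over members. The 1.5-fold threshold and the background of genes in the members' middle range of level were added after seeing the data. Code was tested on simulated data. Python 3.11.15, numpy 2.4.6, pandas 2.3.3 and matplotlib 3.10.9 were used.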

Additional observations from a re-analysis of the deposited data

Results flagged for a closer look

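Mx1 stood on opposite sides of control in the 2 tissues. In high-dose EVs over control its log2 ratio relative to the median gene was 1.08 in liver (0.459 and 3.02 FPKM in control and high-dose EVs) and -0.75 in colon (3.85 and 2.05 FPKM). It was singled out by a search of the 37 genes for a 2-fold difference in liver with a 1.5-fold one the other way in colon. Mx1 was below 1 FPKM in control liver, so it was kept there only through the other libraries. With 1 library per group the difference between tissues was not tested.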

How the results depend on the processing

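No paired analysis was possible because each group has 1 library per tissue and the labels give no replicate numbers, and no library could be left out. The sign of the list's median changed with the scaling or filter in 4 comparisons (control liver over colon, low-dose EVs over NASH in both tissues, and high over low dose in colon). In NASH over control liver, 13 genes 2-fold higher became 6 with a pseudocount of 5 FPKM. As deposited 26 were higher (20.5% of genes), and at the same sum 32 were (37.7% of genes), with a median of 1.46. With median-of-ratios 1 was lower (9.18% of genes). In low-dose EVs over control liver, the 14 higher became 4 with a pseudocount of 5 FPKM and 26 at the same sum (19.3% of genes); in high-dose EVs over control the 17 became 9 and 27 (20.2% of genes). With a pseudocount of 0.1 FPKM, 1 gene was higher in high-dose EVs over NASH liver, 1 lower in NASH over control colon, and 1 higher and 1 lower in low-dose EVs over control colon. In control liver over colon, the 12 higher became 21 and 4 with pseudocounts of 0.1 and 5 FPKM and 6 with no filter. As deposited 4 were higher (8.33% of genes) and at the same sum 3 (7.61% of genes). The 3 lower became 7 with no filter, 7 as deposited (41.8% of genes) and 9 at the same sum (46.5% of genes). The median of 0.75 became 0.11 with no filter, -0.0913 as deposited and -0.22 at the same sum. For other pseudocounts and no filter the share of all genes is not given here, so those counts have no background beside them. The median of low-dose EVs over NASH liver ran from -0.20 to 0.14 and that of high-dose EVs over NASH from 0.01 to 0.31. In colon the median of low-dose EVs over NASH was below 0 at the same sum (-0.08), and that of high over low dose was above 0 at the same sum (0.20). The depth is unknown, so no counting error can be given, and genes near 1 FPKM are the least certain.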
